A study of Rattus norvegicus with 10 samples.

Results

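Complement and coagulation factors are the plasma proteases, cofactors and inhibitors that the liver supplies to the blood. They were followed here at the transcript level as a set of 40 named genes, 23 of complement and 17 of coagulation and fibrinolysis. A gene counted as measured where a probe set of the array names it alone, and the brightest of its probe sets, by the mean of the 10 arrays, stood for it. This gave 34 measured genes among the 14217 genes of the array, 20 of complement and 14 of coagulation. C2 and Cfb share 4 probe sets, C7 shares 2 with a tubulin gene, and F7, F11 and F13b were not named by any probe set, so these 6 genes enter no comparison.

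The livers came from 10 Harlan Sprague Dawley rats, with total RNA of 1 animal on each biotin-labelled Affymetrix rat genome array. The 5 HMB rats ate a diet with 10000 ppm HMB (2-hydroxy-4-methoxybenzophenone, an ultraviolet filter also called oxybenzone) for 13 weeks, and the 5 control rats had 0 ppm, both on the base diet NTP-2000. HMB 1 has a dose label of 0 ppm against a title and a chemical label of HMB, and was kept in the HMB group. The labels used here give no sex, age, cage or array date. Animals were kept 5 to a cage, so cage and diet cannot be told apart if each group was 1 cage. A mean over 11 hepatocyte markers lay between 12.61 and 12.70 (log2 signal) in the control rats and between 12.53 and 12.69 in the HMB rats. HMB arrays differed in quality measures: the 3' minus 5' GAPDH signal was 1.90 to 2.09 (log2) in HMB 3, 4 and 5, and 1.31 and 1.38 in HMB 1 and 2, against 1.38 to 1.77 in controls. The signal of the poly-A spikes minus that of the hybridisation spikes was -1.54, -1.78 and -1.47 in HMB 3, 4 and 5, above all controls (-2.19 to -1.90), and -1.92 and -1.96 in HMB 1 and 2. The SD of all log2 signals of an array was 2.38 to 2.43 in HMB and lower than in every control (2.43 to 2.50).

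Complement is a cascade of proteins that mark microbes and debris and can open pores in membranes. It starts from the C1 complex, from mannose-binding lectins or from the alternative pathway, and converges on cleavage of C3 and then C5. Coagulation is a cascade of serine proteases that ends with thrombin turning fibrinogen into fibrin, which plasmin later dissolves. Hepatocytes make most of these proteins, while the chains of C1q come mainly from macrophages, which in the liver are the Kupffer cells.

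The comparison asked whether the transcripts of these factors differed between livers of rats fed HMB and of control rats. No complement or coagulation transcript passed the test. In limma fitted over all genes, 0 of 34 had a Benjamini-Hochberg adjusted p under 0.05, where 1.72% of all genes tested passed it (0.76% higher and 0.957% lower in HMB), and the smallest adjusted p among the 34 was 0.142. At an unadjusted p under 0.05 there were 4 of the 34, or 11.8%, against 24.9% of all genes tested. These 4 (C5, C9, Cfi and F3) were all lower in HMB. Of all genes tested, 3538 passed this level, and 1908 of them were lower in HMB (13.4% of all genes tested). The differences, all given as HMB minus control on the log2 scale, ran from -0.23 for F3 to 0.11 for C8g.

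The intervals show how large a difference these 10 arrays leave room for in the brightest probe set of each gene. The 95% interval of the difference lay within a 1.5-fold change in either direction for 32 of the 34 genes, and for 86.1% of all genes tested. The exceptions were C1qb and C1qc. Among the 28 transcripts of hepatocytes, all 28 lay within 1.5-fold, and all but C5 and C6 lay within 0.32 log2 units of 0, as did 37.8% of all genes. All 28 are among the brightest 25% of genes, of which 58.2% lay within that limit and 91.4% within 1.5-fold. The widest bounds among these 28 were -0.49 and 0.29. These intervals are set for 1 gene at a time and rest on 5 animals per group. They do not cover the 10 dimmer probe sets of members, given below, whose differences ran from -0.34 to 0.68. The spread behind them is that between animals, drawn by limma toward a value shared by all genes (4.04 prior degrees of freedom). For steady genes this widens the intervals, as for Plg (SD 0.023 in controls and 0.043 in HMB, SE of the difference 0.058). With a trended robust prior, which follows the mean level, the smallest adjusted p was 0.0722, for C9 (limma).

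**Figure D1:**
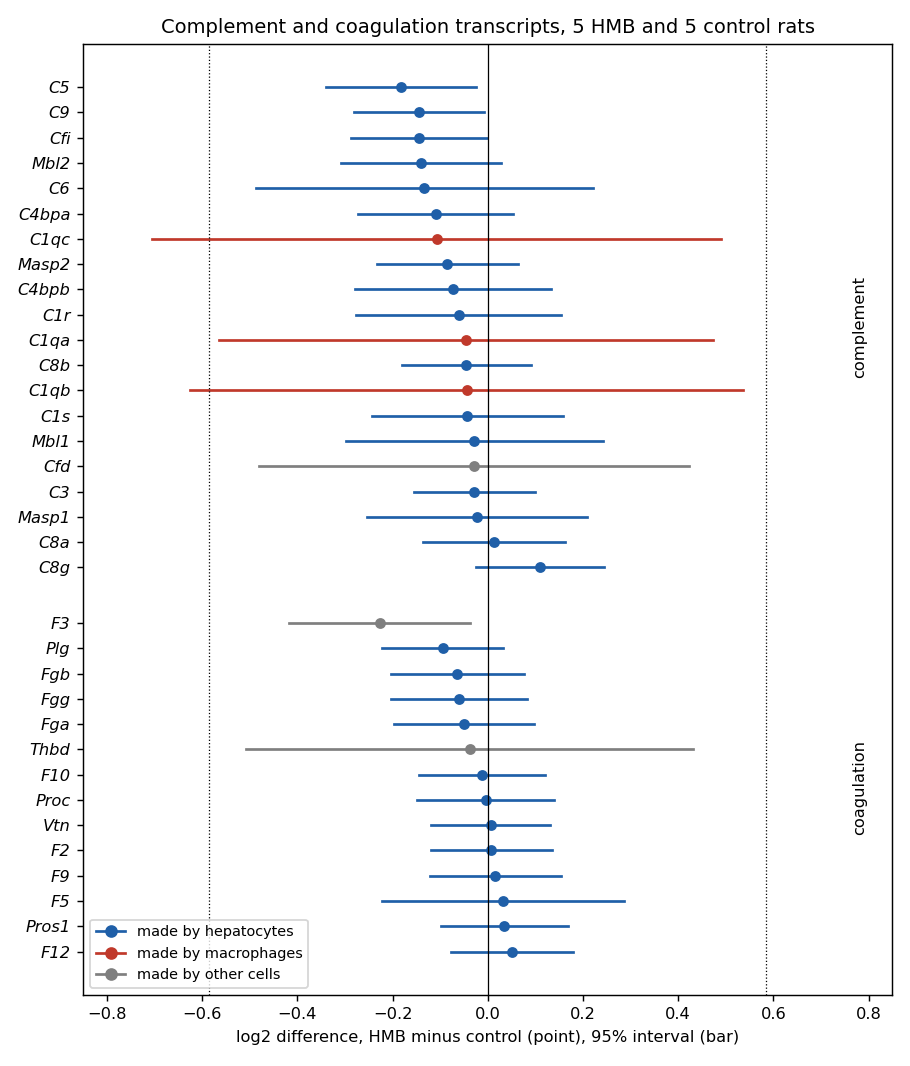
Log2 difference between HMB and control livers for the 34 measured transcripts, with 95% intervals from limma (n = 5 rats per group). Complement is above and coagulation below, colours give the cells that mainly make each factor, and dotted lines mark a 1.5-fold change. Intervals of hepatocyte transcripts are narrow and those of the 3 C1q chains are the widest.

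Below 0 lay 18 of the 20 complement transcripts, with a median of -0.053, and 8 of the 14 coagulation transcripts, with a median of -0.0083. The median over all genes tested was -0.018, with 53.5% of genes below 0. These numbers move with the level of the genes and with the scaling. Of the 34 genes, 29 were among the brightest 25% of all genes by mean signal, and of those bright genes 71.2% lay below 0, with a median of -0.072. After cyclic loess 12 of 20 complement and 7 of 14 coagulation transcripts were below 0, and after quantile normalization 12 and 5. With arrays set to the same median the numbers went the other way, to 19 of 20 and 13 of 14.

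**Figure D2:**
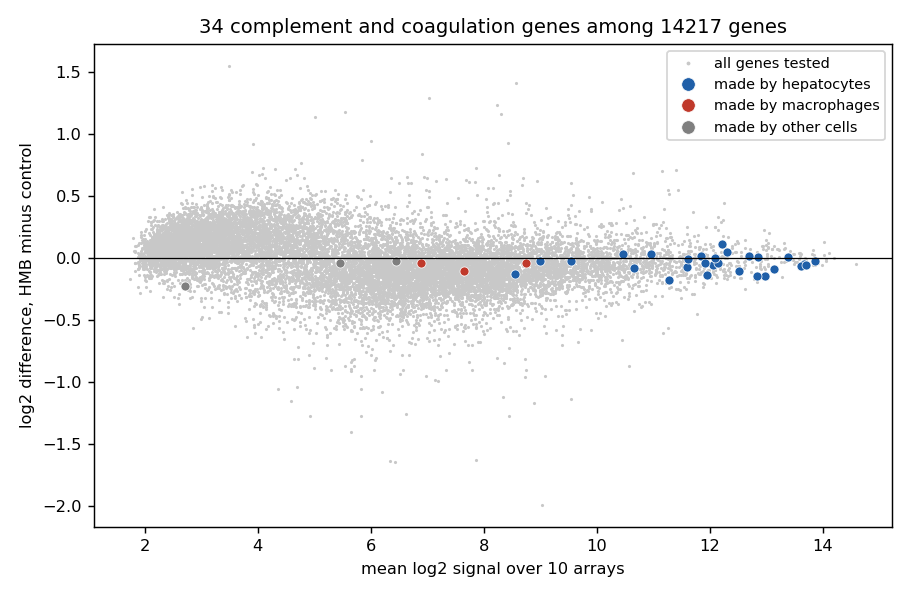
Log2 difference between HMB and control livers against the mean log2 signal over 10 arrays, for all 14217 genes (grey) and the 34 complement and coagulation genes (colours). Most of the coloured points lie at the bright end and near 0, where the band of all genes is narrow.

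Recognition begins with C1q, a bundle of A, B and C chains that binds antibody complexes and dying cells. Its chains varied more between control animals than between the groups. C1qa was at 8.83, 9.06, 8.49, 9.52 and 7.96 (log2 signal) in controls 1 to 5 and at 8.61, 8.67, 9.09, 8.43 and 8.82 in HMB 1 to 5. C1qb was at 6.83, 7.35, 6.52, 7.79 and 6.09 in controls and at 6.82, 6.74, 7.14, 6.55 and 7.11 in HMB. C1qc was at 7.71, 7.99, 7.45, 8.58 and 6.79 in controls and at 7.49, 7.48, 8.10, 7.23 and 7.70 in HMB. Control 4 was highest and control 5 lowest of all 10 rats in each chain, and every HMB value lay between them. The controls spanned 1.55, 1.70 and 1.79 log2 units and the HMB rats 0.66, 0.59 and 0.87. The group differences were -0.046 ± 0.24 for C1qa (SE, 5 rats a group, limma adjusted p = 0.921), -0.044 ± 0.27 for C1qb (adjusted p = 0.933) and -0.11 ± 0.27 for C1qc (adjusted p = 0.831). The interval for C1qc, from -0.70 to 0.49, leaves room for a fold between 0.614 and 1.40.

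The 3 chains ordered the animals alike. Of the 45 pairs of animals, C1qa and C1qc put 44 in the same order, C1qb and C1qc 42, and C1qa and C1qb 41. In the rat RefSeq gene table the genes lie next to each other as C1qa, C1qc and C1qb. Promoter windows of C1qa and C1qb, from 250 bases before to 50 after the start, are shown because these transcripts varied together. They come from RefSeq on GRCr8, both on the minus strand, at chr5:154419884-154420183 for C1qa and chr5:154407778-154408077 for C1qb, and are written 5′ to 3′ along the gene.
C1qa: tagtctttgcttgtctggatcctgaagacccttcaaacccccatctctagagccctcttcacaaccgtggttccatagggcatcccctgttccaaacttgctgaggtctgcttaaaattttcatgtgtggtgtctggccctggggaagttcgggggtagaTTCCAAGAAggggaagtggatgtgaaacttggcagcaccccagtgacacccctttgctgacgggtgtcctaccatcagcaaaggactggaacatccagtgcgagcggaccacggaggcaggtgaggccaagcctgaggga
C1qb: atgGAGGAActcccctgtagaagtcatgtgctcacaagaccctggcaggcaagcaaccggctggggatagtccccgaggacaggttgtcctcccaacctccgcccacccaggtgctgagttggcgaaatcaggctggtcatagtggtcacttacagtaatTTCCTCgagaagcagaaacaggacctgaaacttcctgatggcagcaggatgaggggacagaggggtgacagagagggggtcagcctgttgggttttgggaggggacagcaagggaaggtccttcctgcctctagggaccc
Capitals mark matches on either strand to 3 motifs: GAGGAA, a core bound by PU.1 of macrophages and B cells, GTTAAT, a core of the sites of HNF1 of hepatocytes, and TTCNNNGAA, a site of STAT factors. No matches overlap in the windows shown. C1qb holds 2 matches to GAGGAA, 1 of them read as TTCCTC, which occurs in 27.6% of the 27457 rat windows, and C1qa holds 1 to TTCNNNGAA, found in 8.69%. A match describes the letters only.

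Most macrophage markers placed the control animals as these chains did. Clec4f, a lectin of Kupffer cells, was at 10.56 in control 4, 8.57 in control 5 and 10.23 in HMB 3. Cd68, a lysosomal protein of macrophages, was at 7.88 in control 4 and 5.84 in control 5. Of 11 measured Kupffer cell and macrophage markers, 8 were highest in control 4 and lowest in control 5 among the controls, as were 9 of 9 markers of sinusoidal endothelium. The other 3 were Lyz2, lowest in control 1 (9.62) and, among HMB rats, in HMB 3 (9.99), Cd14, highest in control 1 (10.38, against 9.85 in control 4), and Mpeg1, highest in control 2 (10.70) and lowest in control 3 (9.97). The order with control 4 highest and control 5 lowest held for 0 of 28 hepatocyte-made members, 0 of 11 hepatocyte markers and 7.74% of all genes tested. The macrophage markers had a mean of 7.59 to 8.99 in controls and of 8.07 to 8.63 in HMB, with 0 of 11 called by limma (0 also at an unadjusted p under 0.05) and a median difference of 0.062. The order of controls was not particular to macrophage markers. Besides the endothelial markers, 12 stellate cell and fibroblast markers had their highest control mean in control 4 and their lowest in control 5. These stood 0.37 above and 0.28 below the control mean (0.37 and -0.28 log2). In whole liver, fewer macrophages and less RNA per macrophage cannot be told apart.

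**Figure D3:**
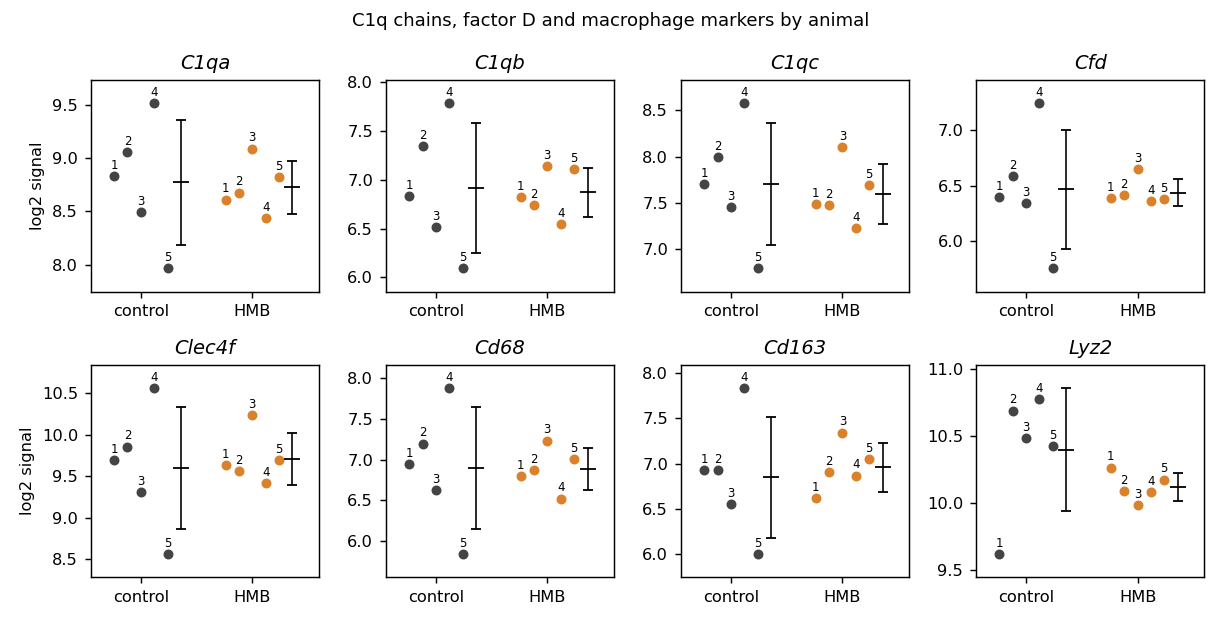
Log2 signal of the C1q chains, Cfd and 4 macrophage markers in each rat, numbered 1 to 5 within control (dark) and HMB (orange). Bars beside the points are mean and SD, and each panel has its own axis. Control 4 is at the top and control 5 at the bottom of the controls in 7 of 8 panels, Lyz2 being the other.

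C1r and C1s, the proteases of the C1 complex, had differences of -0.061 (95% interval -0.28 to 0.15) and -0.043 (-0.24 to 0.16). The lectin arm uses mannose-binding lectins, which recognise microbial sugars, and their proteases Masp1 and Masp2. Mbl2 was at 12.09, 12.13, 11.90, 12.05 and 11.97 (log2 signal) in controls and at 11.98, 11.89, 11.76, 12.02 and 11.79 in HMB. HMB 2, 3 and 5 lay below all controls while HMB 1 and 4 lay among them (difference -0.14 ± 0.077, SE, 5 rats a group, limma adjusted p = 0.275). Masp2 was at 10.78, 10.65, 10.61, 10.82 and 10.67 in controls and at 10.65, 10.68, 10.55, 10.56 and 10.65 in HMB. HMB 3 and 4 were below all controls and the groups overlapped (-0.085 ± 0.068, adjusted p = 0.445). Mbl1 had a difference of -0.029, with HMB 1 and 2 (9.79 and 9.86) above all controls (9.47 to 9.76) and HMB 3, 4 and 5 (9.25, 9.39 and 9.33) below them. Masp1 had a difference of -0.023, with all HMB values within the range of the controls.

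At the convertase step, C3, the protein on which all complement pathways meet, was nearly level. It was at 13.87, 13.95, 13.86, 13.87 and 13.86 (log2 signal) in controls and at 13.87, 13.87, 13.86, 13.80 and 13.86 in HMB. Control 2 was high and HMB 4 low, the others stood at 13.86 or 13.87, and the interval ran from -0.15 to 0.098, a fold of 0.898 to 1.07. Cfd, the factor D protease of the alternative pathway, known as adipsin of fat tissue, ranged from 5.76 in control 5 to 7.24 in control 4 and from 6.36 to 6.65 in HMB. It put 39 to 41 of the 45 animal pairs in the same order as the C1q chains. The means of 5 adipocyte markers lay between 3.93 and 4.45 in controls and between 4.22 and 4.41 in HMB. The part of macrophages or fat in the Cfd values was not tested.

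In the terminal pathway, which builds the membrane attack complex from C5 to C9, C5 and C9 had unadjusted p-values under 0.05. C5 was at 11.32, 11.52, 11.27, 11.44 and 11.30 (log2 signal) in controls and at 11.18, 11.19, 11.30, 11.18 and 11.10 in HMB. HMB 1, 2, 4 and 5 were below all controls and HMB 3 was among them (-0.18 ± 0.072, SE, 5 rats a group, limma adjusted p = 0.151), a fold of 0.882. C9, the subunit that forms the pore, was at 13.03, 13.08, 13.02, 13.07 and 13.00 in controls and at 12.98, 12.83, 12.93, 12.93 and 12.82 in HMB. All 5 HMB values were below all 5 control values, by a small margin (-0.15 ± 0.063, adjusted p = 0.177), a fold of 0.904. C9 and Plg were 2 of 34 genes, or 5.88%, with HMB wholly below control, against 3.48% of all genes tested and 6.12% without overlap in either direction. C8g, the lipocalin chain of C8, lay on the other side, at 12.13, 12.20, 12.15, 12.13 and 12.19 in controls and at 12.32, 12.28, 12.15, 12.29 and 12.30 in HMB. In 4 of 5 HMB rats it was above all controls (0.11 ± 0.062, adjusted p = 0.288), while its partner chains C8a and C8b had differences of 0.013 and -0.045. C6 had a difference of -0.13, with HMB 5 at 7.88 and the other HMB rats at 8.56 to 8.71.

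The complement inhibitors act on the convertases: Cfi cuts C3b and C4b, and the C4b-binding protein made from C4bpa and C4bpb helps it. Cfi was at 12.94, 12.90, 12.91, 12.85 and 12.91 (log2 signal) in controls and at 12.78, 12.80, 12.85, 12.73 and 12.62 in HMB. HMB 3 was level with control 4 and the other HMB rats were below all controls (-0.14 ± 0.065, SE, 5 rats a group, limma adjusted p = 0.196). C4bpa was at 12.52, 12.67, 12.42, 12.62 and 12.63 in controls and at 12.58, 12.52, 12.46, 12.43 and 12.32 in HMB. Only HMB 5 was outside the range of the controls (-0.11 ± 0.075, adjusted p = 0.372), and C4bpb, also lowest in HMB 5 at 11.31, had a difference of -0.073.

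**Figure D4:**
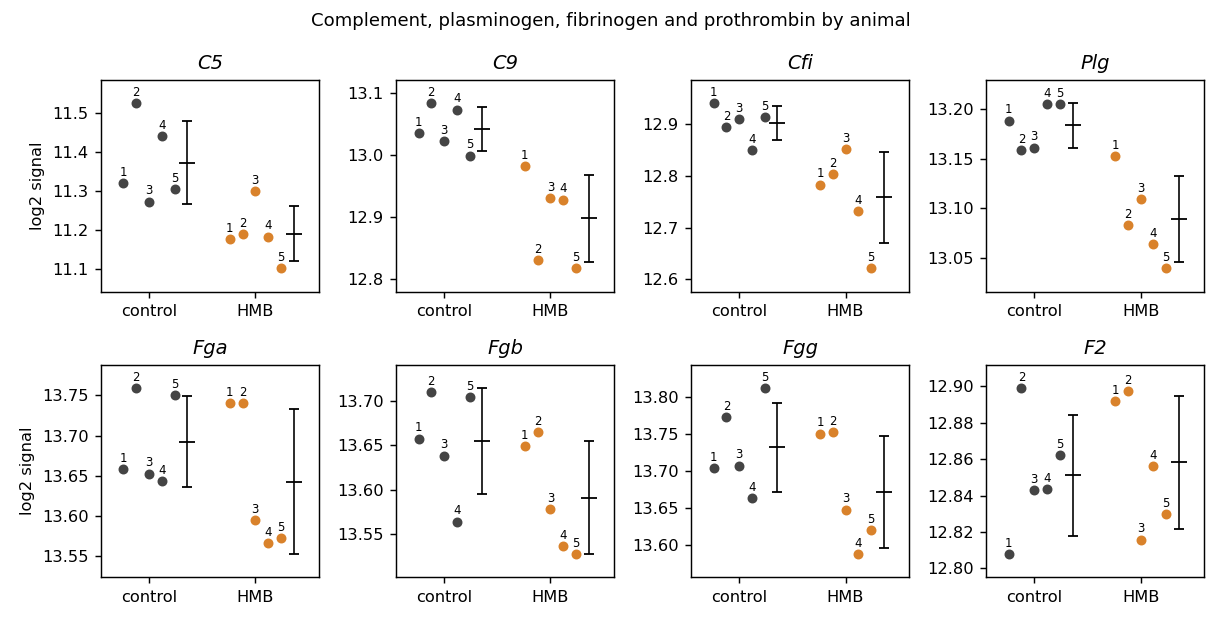
Log2 signal of C5, C9, Cfi, Plg, the fibrinogen chains and F2 in each rat, numbered 1 to 5 within control (dark) and HMB (orange). Bars beside the points are mean and SD, and each panel has its own narrow axis. C9 and Plg do not overlap between groups, and in Fga, Fgb and Fgg HMB 3, 4 and 5 lie below HMB 1 and 2.

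The 5 measured vitamin K-dependent proteins, which carry carboxylated glutamates that bind calcium, had a median difference of 0.0072, with 2 below 0. F2, prothrombin, was at 12.81, 12.90, 12.84, 12.84 and 12.86 (log2 signal) in controls and at 12.89, 12.90, 12.82, 12.86 and 12.83 in HMB. The groups covered the same range (0.0072 ± 0.058, SE, 5 rats a group, limma adjusted p = 0.95), and the interval allows a fold of 0.920 to 1.10. F9 and F10, proteases that lead to thrombin, had differences of 0.016 and -0.012, and Proc and Pros1, the anticoagulant protein C and its cofactor protein S, -0.0048 and 0.034. The 5 intervals of this group ran from -0.15 at the lowest to 0.17 at the highest.

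F12, the protease of contact activation, was at 12.22, 12.33, 12.29, 12.29 and 12.30 (log2 signal) in controls and at 12.36, 12.36, 12.28, 12.34 and 12.35 in HMB. In 4 of 5 HMB rats it was above all controls, while HMB 3 lay among them (0.050 ± 0.059, SE, 5 rats a group, limma adjusted p = 0.61). F5, the cofactor of the enzyme that makes thrombin, had a difference of 0.032 with an interval from -0.22 to 0.29.

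Fibrinogen, the clot protein, is built from the chains Fga, Fgb and Fgg. Fga was at 13.66, 13.76, 13.65, 13.64 and 13.75 (log2 signal) in controls and at 13.74, 13.74, 13.60, 13.57 and 13.57 in HMB. Fgb was at 13.66, 13.71, 13.64, 13.56 and 13.70 in controls and at 13.65, 13.66, 13.58, 13.54 and 13.53 in HMB. Fgg was at 13.70, 13.77, 13.71, 13.66 and 13.81 in controls and at 13.75, 13.75, 13.65, 13.59 and 13.62 in HMB. HMB 3, 4 and 5 were below HMB 1 and 2 in each chain, and in Fga and Fgg below all controls. The differences were -0.050 ± 0.068, -0.064 ± 0.064 and -0.060 ± 0.066 (SE, 5 rats a group, limma adjusted p = 0.669, 0.547 and 0.584). With HMB 3, 4 and 5 left out they were 0.048, 0.0018 and 0.019. Over all 34 members, HMB 3, 4 and 5 were below HMB 1 and 2 in 12, or 35.3%, and above them in 0. Over all genes tested these shares were 16.4% and 14.4%, and over the brightest 25% of genes, which hold 29 of the 34, 27.7% and 9.54%. These 3 arrays are those with the higher GAPDH 3' minus 5' signal, whose part in the fibrinogen values was not tested, and the higher poly-A spike signal. After adjusting for poly-A spike signal the differences of Fga, Fgb and Fgg were 0.037, 0.0017 and 0.0045. That signal was higher in HMB 3, 4 and 5 than in all controls, so this adjustment cannot tell it apart from diet.

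The fibrinogen chains put 40 to 42 of the 45 animal pairs in the same order as each other. Their genes are neighbours in the order Fgg, Fga and Fgb in the rat RefSeq gene table. Promoter windows of the same kind are shown for these chains because they varied together, at chr2:170671919-170672218 (plus strand) for Fga, the first of 2 listed starts, chr2:170700826-170701125 (minus strand) for Fgb and chr2:170652833-170653132 (plus strand) for Fgg. Capitals mark the same 3 motifs.
Fga: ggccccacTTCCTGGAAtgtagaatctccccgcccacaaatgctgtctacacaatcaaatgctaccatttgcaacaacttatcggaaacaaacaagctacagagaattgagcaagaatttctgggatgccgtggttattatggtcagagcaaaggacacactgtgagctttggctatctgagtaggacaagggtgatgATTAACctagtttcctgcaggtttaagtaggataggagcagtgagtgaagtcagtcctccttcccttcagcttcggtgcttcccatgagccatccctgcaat
Fgb: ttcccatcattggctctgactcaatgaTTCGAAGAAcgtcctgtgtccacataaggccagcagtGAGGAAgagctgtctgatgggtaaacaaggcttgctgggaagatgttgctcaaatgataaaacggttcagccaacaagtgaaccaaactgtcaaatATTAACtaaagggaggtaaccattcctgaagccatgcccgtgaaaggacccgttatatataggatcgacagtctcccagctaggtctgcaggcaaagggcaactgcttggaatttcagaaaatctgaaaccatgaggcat
Fgg: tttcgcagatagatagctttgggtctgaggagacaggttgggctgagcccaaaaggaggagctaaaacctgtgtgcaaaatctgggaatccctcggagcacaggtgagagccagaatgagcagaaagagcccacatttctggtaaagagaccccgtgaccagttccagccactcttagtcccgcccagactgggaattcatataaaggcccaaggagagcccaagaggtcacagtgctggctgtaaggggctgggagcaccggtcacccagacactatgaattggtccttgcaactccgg
Fga and Fgb each hold 1 match to GTTAAT, read as ATTAAC on the strand shown, and 1 to TTCNNNGAA, and Fgb also 1 to GAGGAA. Fgg holds none of these letters in this window. Of the 24 measured hepatocyte-made members with a window, 9, or 37.5%, held GTTAAT, against 7.44% of all rat windows, and 7, or 29.2%, held TTCNNNGAA, against 8.69%. GAGGAA was in 20.8% of them, against 27.6%. These shares describe sequence that these data did not measure.

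Plg, the precursor of the fibrin-dissolving protease plasmin, was at 13.19, 13.16, 13.16, 13.20 and 13.20 (log2 signal) in controls and at 13.15, 13.08, 13.11, 13.06 and 13.04 in HMB. The groups did not overlap, and the difference was -0.094 ± 0.058 (SE, 5 rats a group, limma adjusted p = 0.327), a fold of 0.937. Vtn, an adhesion protein that also restrains the membrane attack complex, had a difference of 0.0060 with an interval from -0.12 to 0.13.

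The membrane proteins F3 and Thbd of the clotting system are made outside hepatocytes. F3, tissue factor, which starts clotting where vessels are cut, was at 2.78, 3.10, 2.78, 2.85 and 2.67 (log2 signal) in controls and at 2.62, 2.70, 2.53, 2.69 and 2.50 in HMB. HMB 1, 3 and 5 were below all controls (-0.23 ± 0.087, SE, 5 rats a group, limma adjusted p = 0.142). This was the smallest adjusted p of the set, at a signal in the lowest 25% of all genes, and detection calls were not used here. Thbd, thrombomodulin of the endothelium, was at 5.34, 5.49, 5.43, 6.08 and 5.09 in controls and at 5.38, 5.19, 5.57, 4.98 and 6.13 in HMB. HMB 5 was highest of all and HMB 4 lowest, and among controls animals 4 and 5 stood at the ends, as in the endothelial markers, whose mean ran from 6.97 to 8.09 in controls and from 7.13 to 7.68 in HMB. The Thbd difference was -0.038 ± 0.22 (adjusted p = 0.928).

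Where a gene had several probe sets, they did not always tell the same. For 6 members there were 10 further, dimmer probe sets, and over all 31042 probe sets 1.7% were called against 1 of these 10, a probe set of Fgb singled out here after its values were seen. It was at 3.20, 3.09, 3.15, 3.27 and 3.37 (log2 signal) in controls and at 3.76, 3.46, 4.23, 3.95 and 4.07 in HMB, with all HMB rats above all controls. It rose by 0.68 ± 0.13 (SE, 5 rats a group, limma adjusted p = 0.0335 over probe sets), while another dim probe set of Fgb had 0.12 and the bright one -0.064. The second probe set of Fga had a difference of -0.26 ± 0.14 (adjusted p = 0.282), against -0.050 for the brighter one. The lowest difference of the 10 was that of a probe set of Masp1, at -0.34 ± 0.11 (adjusted p = 0.0973), with HMB 2, 4 and 5 below all controls, and another of Masp1 had -0.11, against -0.023 for the brightest. Those of Masp2 had -0.18 and -0.29, against -0.085, and that of Mbl2 had -0.18, against -0.14. Those of Thbd went the other way from its brightest, at 0.078 and 0.23 (limma adjusted p = 0.746 and 0.169 over probe sets), against -0.038. Genes in the lowest 25% of mean signal had a median difference of 0.11.

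By the cells that make them, the 28 hepatocyte-made members had a median of -0.044, with 20 below 0. All 28 belong to the bright genes described above, of which 71.2% lay below 0, with a median of -0.072. The median of the hepatocyte-made members was -0.082 with arrays set to the same median and -0.024 after quantile normalization. After adjusting for poly-A spike signal it was 0.0031. The 3 macrophage-made C1q chains had a median of -0.046, which turned to 0.051 after cyclic loess and 0.054 after quantile normalization. The groups stood apart in their spread between animals. The median SD among controls was 0.061 for hepatocyte-made members, 0.66 for the C1q chains and 0.15 for all genes tested. Within hepatocyte-made members, the 16 of complement had a median of -0.067, near that of the bright genes, and the 12 of coagulation 0.00058. The mean deviation of those 16 from the control mean was 0.014, -0.035, -0.080, -0.076 and -0.17 in HMB 1 to 5, and that of the 12 was 0.026, 0.0010, -0.055, -0.013 and -0.018. In controls the corresponding means ran from -0.075 to 0.053 and from -0.014 to 0.017. HMB 3, 4 and 5 for complement and HMB 3 and 5 for coagulation thus lay below every control. The margin was very small for HMB 3 and 4 in complement and for HMB 5 in coagulation. HMB 3, 4 and 5 are also the arrays with the higher GAPDH and poly-A spike measures. The part of the GAPDH measure in these means was not tested. After adjusting for poly-A spike signal the median was -0.044 for the 20 complement members and 0.016 for the 14 coagulation members. With 3 HMB arrays above all controls in that signal, the adjustment cannot tell it apart from diet. The members were chosen with results of these data known, and no test was made of these means.

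**Figure D5:**
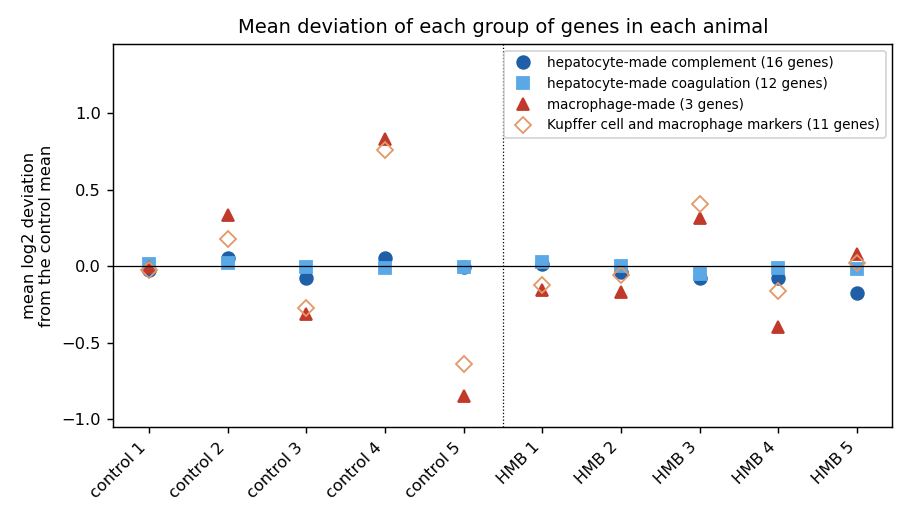
Mean log2 deviation from the control mean in each rat, for the 16 hepatocyte-made complement genes, the 12 hepatocyte-made coagulation genes, the 3 C1q chains and the 11 Kupffer cell and macrophage markers. The C1q chains run from -0.85 in control 5 to 0.83 in control 4 next to the macrophage markers, while the hepatocyte groups stay between -0.17 and 0.053.

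Other genes of both cascades were measured as well. Of 16 further complement genes measured, receptors and membrane inhibitors among them, limma called 0 (1 at an unadjusted p under 0.05). Their median was 0.018, with 7 of 16 below 0, where 18 of the 20 complement members were below 0. The sets differ in level: 6 of the 16 were among the brightest 25% of genes, against 17 of the 20. Over all genes, 71.2% of the brightest 25% lay below 0, and 21.2% of the lowest 25%. Among the 16, those with the smallest p were Fcnb, a ficolin, at 0.31 (limma adjusted p = 0.127), and the integrin subunits Itgam at 0.18 (adjusted p = 0.359) and Itgax at -0.19 (adjusted p = 0.403). Of 23 further coagulation genes limma called 0 (1 at an unadjusted p under 0.05), with a median of -0.020 and 14 below 0. A2m, a broad protease inhibitor, was at -0.69 with an interval from -1.37 to -0.0087 (adjusted p = 0.196). Vkorc1, the reductase that recycles vitamin K, was at -0.19 (adjusted p = 0.245) and Serpina10, an inhibitor of factor Xa, at -0.13 (adjusted p = 0.268).

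Among 14 measured regulators of these genes 1 fell (1.72% of all genes were called), 0 rose and 13 did not pass, with a median of -0.16. At an unadjusted p under 0.05 there were 5 of 14, against 24.9% of all genes. The one that fell was Stat3, the transcription factor through which interleukin-6 drives fibrinogen in the acute phase. It ranged from 8.59 to 9.04 (log2 signal) in controls and from 8.03 to 8.58 in HMB, and fell by 0.59 ± 0.12 (SE, 5 rats a group, limma adjusted p = 0.0384). All HMB values were below all controls, which held for 3.48% of all genes. That call was lost after cyclic loess (-0.49, adjusted p = 0.0739) and quantile normalization (-0.49, adjusted p = 0.0688), with HMB 1 counted as a control (-0.52, adjusted p = 0.0828), without HMB 3 to 5 (-0.55, adjusted p = 0.281) and after adjusting for poly-A spike signal (-0.65, adjusted p = 0.196). It was also lost without control 2, 3, 4 or 5 or HMB 2, 3, 4 or 5 (differences from -0.67 to -0.53, adjusted p from 0.0583 to 0.0938). Foxa3, a forkhead factor of hepatocytes, had a difference of -0.75 (adjusted p = 0.078) and Cebpb, a factor of the acute phase, -0.39 (adjusted p = 0.128). Of 13 acute phase proteins outside the set limma called 0 (1 at an unadjusted p under 0.05), with a median of -0.033, Orm1 at 0.17 (adjusted p = 0.19), Hamp at -0.17 (adjusted p = 0.306) and Crp at -0.21 (adjusted p = 0.385).

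Markers of other cells were measured beside these. In limma 0 markers of 9 lists were called: 0 of 12 stellate cell and fibroblast markers (median -0.13), 0 of 9 endothelial (-0.097), 0 of 6 cholangiocyte (-0.00054), 0 of 5 adipocyte (0.10), 0 of 5 platelet (0.11), 0 of 4 erythroid (0.35), 0 of 6 T and NK cell (0.050), 0 of 2 B cell (0.26) and 0 of 5 neutrophil markers (0.046). At an unadjusted p under 0.05 there were 2 stellate, 2 platelet, 2 erythroid and 2 T and NK cell markers, 1 endothelial and 1 adipocyte marker. Hepatocyte markers had a median of 0.0014, with 0 of 11 called and 1 at an unadjusted p under 0.05. The erythroid markers had means of 4.82 to 5.25 in controls and 5.11 to 5.58 in HMB, and their part in the differences above was not tested.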

How the data were processed

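Liver RNA of 10 rats was measured on 1 array each. The deposited table holds log2 signals for 31099 probe sets, made with RMA, per the submitters' processing notes (no version named). These log2 values were used as the authors deposited them. Depth has no meaning for arrays, and their number limits the precision. The 57 control probe sets stayed out of the tests. Of the other 31042, 20826 named 1 gene, 436 several and 9780 none, by the platform annotation with symbols updated through the RefSeq table of GRCr8 for 20764.

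Each gene's brightest probe set entered limma 3.58.1 (R 4.3.3, lmFit and eBayes, HMB minus control, 8 residual degrees of freedom), with Benjamini-Hochberg adjustment over 14217 genes and a threshold of 0.05. Intervals are 95% intervals from the same fit. The fit was tested on simulated data, where it called 57% of changes of 0.5 log2 units and 97% of changes of 1. Changes as small as those of the members (-0.23 to 0.11) were not simulated. Groups came from titles, replicate numbers from deposition order. No 2 of the 10 arrays were identical. The labels give each array an animal of its own. The p-values thus rest on the spread between animals, drawn by eBayes toward a value shared by all genes.

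Members, lists and alternatives were chosen with earlier results of these data known. Given with every value are the 12 members with the smallest p and C1qa, C1qb, C1qc, C3, C9, F2, F7, Fga, Fgb, Fgg, Plg, F3 and Thbd, of which F7 was not measured. Of other lists, up to 3 genes with the smallest p are named, and Clec4f, Cd68, Mpeg1 and, in a figure, Cd163 were added after their values were seen. Alternatives were other normalizations, a filter on the lowest 25% of mean levels, the mean of a gene's probe sets, a trended robust prior, array weights, HMB 1 as a control, adjustment for poly-A spike signal (a covariate) and animals left out. Figures were drawn with matplotlib 3.10.9.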

Additional observations from a re-analysis of the deposited data

Results flagged for a closer look

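In each of 68 groups of 5 values (34 genes in control and in HMB), the highest and lowest animals were set against the others by Dixon's 95% limit, which chance passes in about 1 of 20 groups. There were 7 such values. C3 in control 2 (13.95, nearest 13.87) and Mbl1 in control 2 (9.76, nearest 9.53) were high among controls. C3 in HMB 4 (13.80, nearest 13.86) and C6 in HMB 5 (7.88, nearest 8.56) were low among HMB rats. In HMB 3, C8g (12.15, nearest 12.28) and F12 (12.28, nearest 12.34) were low and Cfd (6.65, nearest 6.41) was high. All are log2 signals.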

How the results depend on the processing

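In each of the 21 alternatives 0 members were called (smallest adjusted p 0.0572, with the mean of a gene's probe sets, where Fgb was at 0.24), with 0 to 7 members at an unadjusted p under 0.05. Of 398 values for the 19 members given in full, 17 moved by more than the SD between animals. The medians stayed within that SD except for coagulation with arrays set to the same median (-0.046) and hepatocyte-made members after adjusting for poly-A spike signal (0.0031). The complement median was below 0 in all 22 alternatives, counting Vtn as complement among them (-0.11 to -0.024), and the coagulation median in 16 of 22. With 1 animal left out the medians were -0.064 to -0.021 for all members and -0.25 to 0.14 for the C1q chains. Genes changed by HMB over the whole array, 244 in all, numbered 82 after cyclic loess, 62 after quantile normalization, 659 with array weights, 30 with HMB 1 as a control, 0 with that adjustment or without HMB 3 to 5 (limma, 1914 and 1612 at an unadjusted p under 0.05) and 704 without HMB 1 and 2. With 1 animal left out the number ran from 0 (without control 2, 3 or 5 or HMB 2, 2772 to 3434 at an unadjusted p under 0.05) to 1014 (without control 1). The cause was not tested. No paired analysis was possible because replicate numbers follow deposition order and pair no animals.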
